A study of Mus musculus with 6 samples.

Results

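The 260 probes described here lie around Steap4 on the proximal end of mouse chromosome 5. They are all gene probes of an expression array that the files place on chromosome 5 below position 28000000 of the mm9 genome build. Probes named after their coordinates (138 probes for long intergenic transcripts) and 8 probes of Steap1, Steap2, Steap4, Dnajc2 and Cd36 were left out. That gave 260 of 55681 probes on the array, under 196 gene or transcript names. The rule uses position and name only, but it was set with earlier results of these data known. Distance was counted from position 7981239, where the files put the Steap4 probe. On the lower-coordinate side 38 probes reached out to 4.85 megabases (Mb), and on the higher-coordinate side 222 probes reached out to 19.8 Mb. The nearest probe lay 0.0574 Mb away on the lower side and 0.0742 Mb away on the higher side.

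The study compared mice lacking TIARP, the protein encoded by Steap4, with wild-type mice, all of strain C57BL/6. There were 6 arrays, each with total RNA labelled with Cy3 in 1 colour, and 1 array per group. Peritoneal macrophages, drawn 3 days after thioglycollate medium was given into the peritoneal cavity, came from TIARP+/+ (WT) and TIARP-/- (KO) mice, and 1 array of each genotype was made without and 1 with TNFα for 24 hours. Splenic neutrophils of both genotypes were isolated by magnetic sorting (MACS) on the surface protein Ly6G and had no TNFα. The labels number mice 1 to 3 for each array without saying whether their RNA was pooled. Since each group has a single array, no difference within a condition has a replicate check or a p-value. The 3 pairs of KO and WT arrays allow a fit of genotype over the conditions, given once below.

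STEAP4 is a membrane protein that reduces iron and copper, and TNFα induces it in several cell types. When a gene is inactivated in embryonic stem cells and the allele is then bred into another strain, the DNA on both sides of the target travels with it, and recombination shortens that stretch over generations. Genes of such a stretch can carry alleles of the stem cell strain, which can alter their transcription or the match between transcript and probe. The sources used here do not give the stem cell strain of the TIARP-/- mice, the number of backcrosses or the deleted part of Steap4. The comparisons below ask how KO and WT arrays differed at the genes beside the target, by distance from it, against probes elsewhere in the genome.

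Several sequences show what these probes can and cannot separate. Each probe has 60 bases, of which 30 are printed in the order of the files. Capitals mark bases that lie in a run of at least 20 shared with a probe of another name. The first 3 are probes on which the results turn, with no capitals because no such run was found among the probes of the array. They were not checked against the genome. They lie at chr5:8064594-8067569 (+ strand), chr5:4081471-4081530 (- strand) and chr5:20883482-20883541 (+ strand) of mm9.
Sri: ttgtgaatttctcgtatgatgatttcatcc
Cyp51: aggttccttttagtattatctttggttatt
Fgl2: aaatactatgtgttcatcctgagtgtgtct
The interval of the Sri probe is longer than its 60 bases, so it was placed across a gap in the genome.

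The next pair are both probes of Xrcc2, a gene of homologous recombination repair, at chr5:25196044-25196103 and chr5:25197876-25197935 (- strand). They are shown because they gave different values in neutrophils.
Xrcc2, first probe: tcggggtatcatgctccccagttaactctt
Xrcc2, second probe: gttgatctctatcatcaaaaaggcttttag

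The last set shares its bases with other probes. The probe of transcript TC1659587, at chr5:8055515-8055574, shares 48 of its bases with 2 probes of other names, among them the ribosomal protein gene Rpl27 on chromosome 11. Speer4b at chr5:27824440-27824499 and Gm10220 at chr5:26444329-26444388 (- strand) carry the same 30 bases.
TC1659587: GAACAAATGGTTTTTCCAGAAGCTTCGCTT
Speer4b: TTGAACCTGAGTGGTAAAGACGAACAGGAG
Gm10220: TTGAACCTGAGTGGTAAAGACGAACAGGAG
Of the 260 probes, 34 shared such a run, 19 of them with a probe outside the stretch, and their values cannot be ascribed to the named gene alone. Of 202 probes matched to a RefSeq gene (assembly GRCm38.p6, used for names), 198 belonged to chromosome 5 and 4 to another chromosome. Whether a probe lies in a coding exon or a UTR is not given, since no gene annotation of mm9 was used here.

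Levels are given as scaled signals, in which the 75th percentile of every array is 100. Before scaling, that percentile was 490 and 410 on the WT and KO macrophage arrays, 432 and 338 with TNF, and 231 and 224 on the neutrophil arrays. A probe counted as measured where the files mark it well above background, and it was read in a condition if it was measured on at least 1 of the 2 arrays. It was past the size rule where KO and WT differed at least 2-fold, a log2 difference of 1. If only the brighter array was measured, the dimmer value was raised to the lowest signal marked well above background on its array, unless the probe's signal already exceeded it, and the fold is written as "at least". Repeated spots of a probe scattered by 0.06 to 0.07 (median SD on the log2 scale, by array), which describes technical scatter only. Of the 260 probes, 54 were dim on every array, 206 could be read in at least 1 condition, and 136 were measured on all 6 arrays.

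Markers of the labelled cell types were present, and markers of other cell types differed between genotypes. All 6 macrophage markers were measured on each macrophage array and all 6 neutrophil markers on each neutrophil array. In both macrophage comparisons 4 of 6 neutrophil markers were past 2-fold higher in KO, and their summed scaled signal went from 15655 to 42586 without TNF and from 19380 to 45993 with TNF. All 4 B cell markers were higher too, with sums of 473 and 1781 without TNF and 315 and 1276 with TNF. Of 3 T cell markers 2 were higher in both, with sums of 282 and 323, and 282 and 327. Of 4 mesothelial and fibroblast markers 3 were lower without TNF and 2 with TNF. On the neutrophil arrays 4 of 4 erythroid markers were higher in KO, from 34929 to 85326 in sum, and 5 of 6 macrophage markers were lower. Also past 2-fold higher in KO were 2 of 6 neutrophil markers and 1 of 3 T cell markers. B cell markers were bright there too, with sums of 53408 in WT and 50023 in KO. In bulk RNA, fewer cells of a type and less RNA per cell cannot be told apart.

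The Steap4 probe itself read 35.7 in WT and 20.3 in KO macrophages, 11.4 and 3.79 with TNF, the last not well above background, and 21.1 and 16.1 in neutrophils. Since the deleted part is not given, this probe checks no label.

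No probe beside Steap4 was past 2-fold the same way in all 3 conditions (0 of 148 that could be read in all 3). Elsewhere in the genome that share was 0.604% (143 of 23686). In macrophages without TNF, 10 of 179 flanking probes were past 2-fold, 5 higher and 5 lower in KO, beside a background of 5.45% of named gene probes elsewhere (3.62% higher and 1.83% lower). With TNF it was 14 of 168, 10 higher and 4 lower, beside 8.97% (6.01% and 2.96%). In neutrophils it was 18 of 182, 6 higher and 12 lower, beside 7.98% (3.4% and 4.58%). The flanking shares were 5.59%, 8.33% and 9.89%, so each lay near its background. The median size of the log2 difference was 0.16, 0.21 and 0.28 against 0.17, 0.23 and 0.25 elsewhere. On the rest of chromosome 5 the share past 2-fold was 3.66%, 6.42% and 5.65%. With TNF 71.4% of the 14 probes were higher in KO, beside 67% of those past 2-fold elsewhere. After quantile normalization 6 of 11 were higher (54.5%, beside 54.9%), and after a trend with intensity was removed 5 of 12 (41.7%, beside 51.9%).

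**Figure D1:**
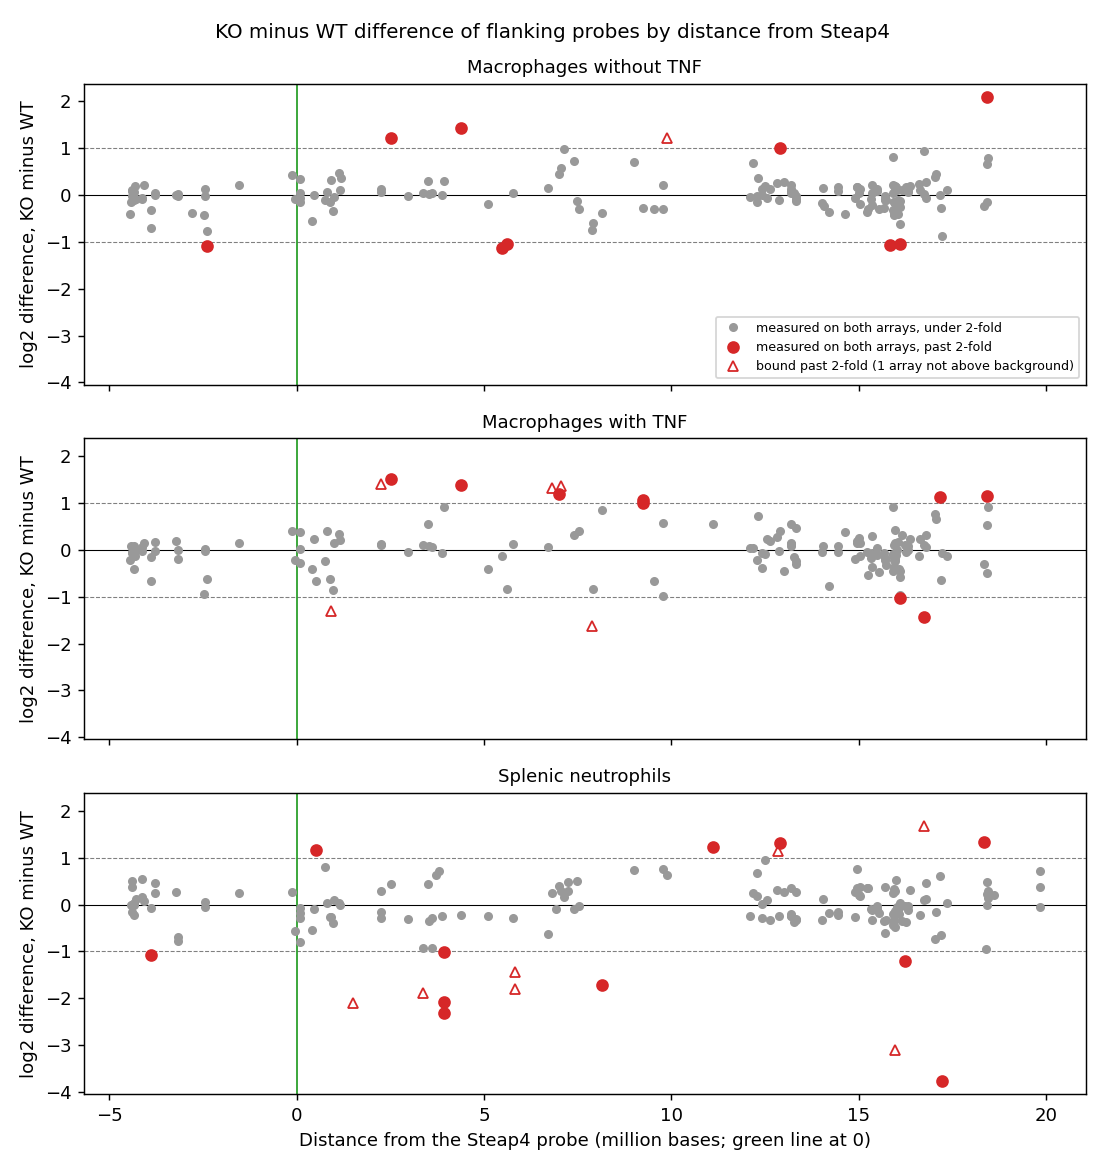
Each point is 1 flanking probe, placed by its distance from the Steap4 probe (x axis, Mb) and its log2 difference, KO minus WT (y axis), for the untreated macrophages, the TNF-treated macrophages and the neutrophils, from 1 array per group. Red marks the 10, 14 and 18 probes past 2-fold (dashed lines), triangles those known only as a bound; they lie at many distances, most of them on the higher side, and the nearest 1 Mb holds 0, 1 and 1 of them.

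The 8 probes nearest to Steap4 that could be read held no 2-fold difference. Sri encodes sorcin, a calcium-binding protein that regulates the ryanodine receptor, and lies 0.0834 Mb away. Its scaled signal was 2201 in WT and 2802 in KO macrophages, 3232 and 4229 with TNF, and 1692 and 1604 in neutrophils. It was thus 1.27-fold and 1.31-fold higher in KO macrophages and almost level in neutrophils, with a log2 difference of -0.08. Dbf4, the regulatory subunit that activates the Cdc7 kinase at replication origins, lies 0.416 Mb away. It read 68.7 and 46.9 in macrophages, 57.2 and 43.3 with TNF, and 37.6 and 26.0 in neutrophils. KO was the lower array in each condition, with log2 differences of -0.55, -0.40 and -0.53, all short of 2-fold. Slc25a40, a mitochondrial carrier 0.473 Mb away, read 78.5 on both macrophage arrays, 69.8 and 82.2 with TNF, and 39.8 and 37.3 in neutrophils. Its second probe was dim on all 6 arrays.

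Adam22, a synaptic receptor for secreted LGI proteins, had 3 probes between 0.0912 and 0.163 Mb away. Only the nearest was measured. It read 60.4 in WT and 34.9 in KO neutrophils, 5.42 and 5.16 in macrophages without TNF, and was dim with TNF. The probes of the 2 transcripts just before Sri were the brightest of the neighbours. That of TC1659587 shares 48 bases with 2 probes of other names, so its values cannot be ascribed to this transcript alone. TC1659587 read 17605 and 18186 in macrophages, 20196 and 20437 with TNF, and 31971 and 28348 in neutrophils. Its neighbour A_55_P2158152 read between 6157 and 10484 over the 6 arrays and was lower in KO in each condition, by -0.15, -0.29 and -0.29. On the lower side NAP111924-1 was higher in KO in each condition, with differences of 0.42, 0.39 and 0.26. Of NAP062047-1, 1 probe read 339 and 320, 503 and 435, and 141 and 95.2 in the same order, and the other was dim throughout.

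Within 2.5 Mb on both sides, 1 of 27 probes was past 2-fold without TNF, 2 of 26 with TNF and 2 of 26 in neutrophils. These shares were 3.7%, 7.69% and 7.69%, beside 5.45%, 8.97% and 7.98% of named gene probes elsewhere. Rundc3b, which encodes a RUN-domain protein, lies 0.509 Mb away and had a probe past 2-fold in neutrophils. It read 16.8 in WT and 37.5 in KO neutrophils, a 2.23-fold difference with KO the higher. In macrophages with TNF it went the other way, at 7.77 and 4.90, and without TNF only WT was measured, at 3.11. Its second probe was measured only on the KO neutrophil array, at 5.26, which gives at least 1.1-fold higher in KO. Grm3, a metabotropic glutamate receptor 1.5 Mb away, was measured only on the WT neutrophil array, at 20.2, and was at least 4.3-fold lower in KO.

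**Figure D2:**
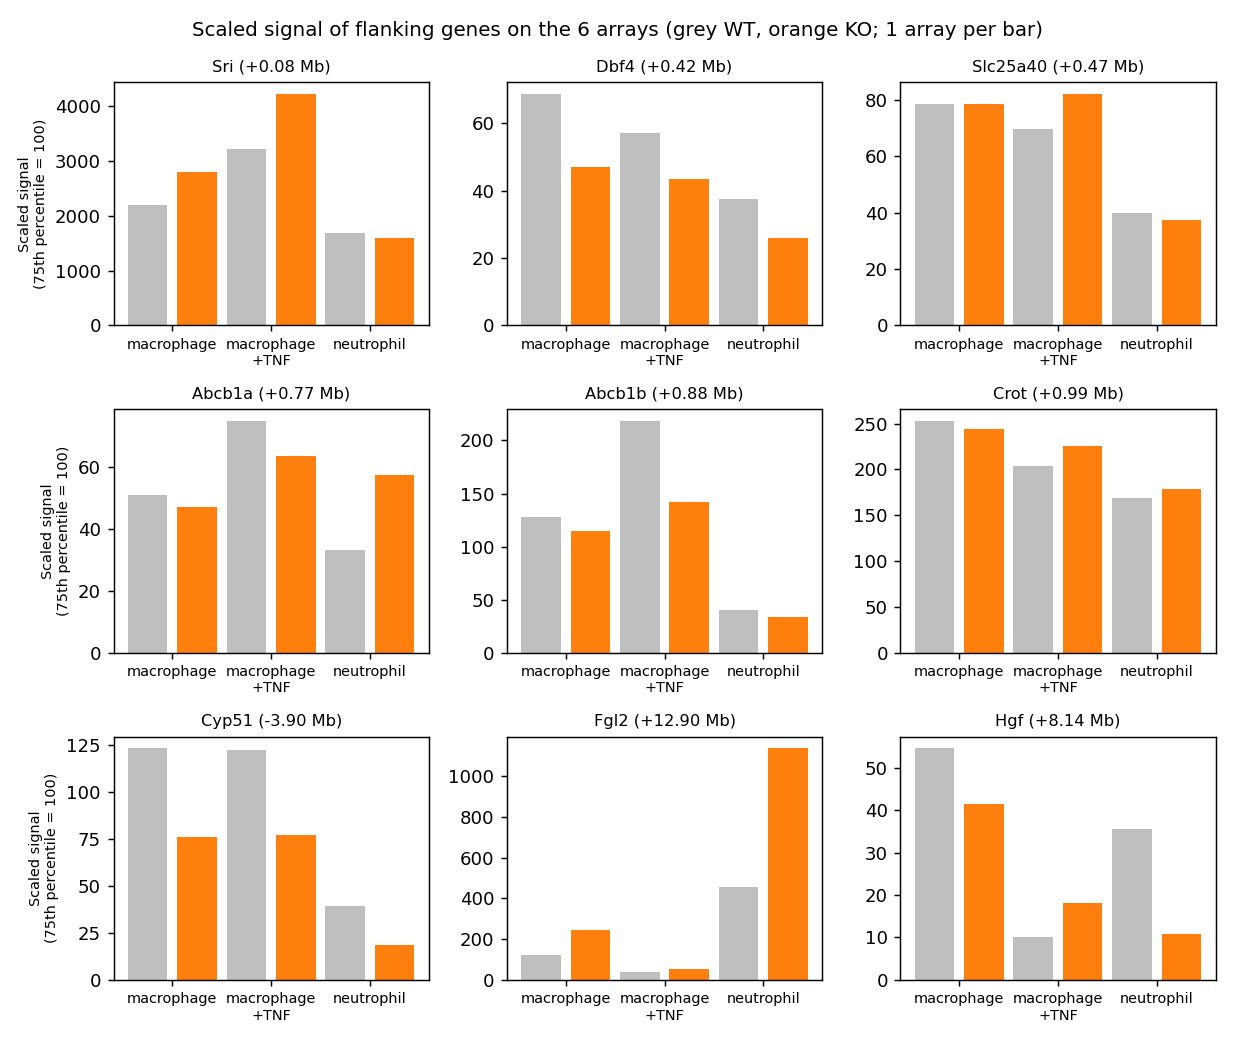
Bars show the scaled signal (75th percentile of each array = 100, linear axis from 0) of 9 flanking genes on the 6 arrays, WT in grey and KO in orange, with 1 array per bar and therefore no error bar. Dbf4, Cyp51 and Abcb1b are lower on the KO array in each condition, Fgl2 is higher on the KO array in each, and Sri, Abcb1a, Crot and Hgf change direction between conditions.

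The ABC transporter cluster begins 0.767 Mb from Steap4. Abcb1a and Abcb1b encode the drug efflux pumps known as P-glycoprotein, Abcb4 the phospholipid floppase, and Abcb8, further out at 15.9 Mb, a mitochondrial transporter. Abcb1a read 50.7 and 47.1 in macrophages, 74.7 and 63.5 with TNF, and 33.1 and 57.3 in neutrophils, so the KO array was the higher in neutrophils alone. Abcb1b read 128 and 115, 218 and 142, and 40.0 and 33.6 in that order. Abcb4 had 2 probes. The brighter read 168 and 133, 384 and 211, and 326 and 248, with log2 differences of -0.33, -0.86 and -0.40. The dimmer read 8.66 in WT macrophages with TNF and was not well above background in KO, at least 2.49-fold lower, while it was 0.33 higher in KO without TNF. Of 6 probes of the list that could be read, 0 were past 2-fold without TNF, 1 with TNF and 0 in neutrophils. Elsewhere 5.45%, 8.97% and 7.98% of named gene probes were past 2-fold, and 6 probes cannot be told from that. The median differences over the list were -0.15, -0.44 and -0.30, beside medians over all probes elsewhere of 0.06, 0.03 and -0.02. Next to the cluster, Crot, a peroxisomal carnitine acyltransferase, differed by at most 0.14 in any condition.

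Cyp51, the sterol demethylase of cholesterol synthesis, lies 3.9 Mb away on the lower side. Its scaled signal was 123 in WT and 75.9 in KO macrophages, 123 and 76.8 with TNF, and 39.5 and 18.7 in neutrophils. KO was lower in each condition, 1.62-fold, 1.6-fold and 2.11-fold, and the last passed the size rule. Napepld, which makes lipid amides, was higher in KO by 0.04, 0.54 and 0.36. Of 4 probes of this list, 0, 0 and 1 were past 2-fold, beside 5.45%, 8.97% and 7.98% of named gene probes elsewhere. So few probes cannot be told from those shares.

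The 38 probes of the lower side differed little in macrophages. Their median size of difference was 0.10 without TNF and 0.12 with it, and 0.24 in neutrophils. Krit1, an adaptor of endothelial junctions, read 170.5 and 162, 144 and 142, and 168 and 188 on its brighter probe. Akap9, a centrosomal anchor for kinases, differed by -0.33, -0.15 and -0.08. Cldn12, a claudin, read 202 and 151 in macrophages and 227 and 118 with TNF, 1.92-fold lower in KO, and was dim in neutrophils. Cfap69, a protein of cilia and flagella, was lower in KO macrophages on both of its probes, at -0.77 and -1.08 on the log2 scale, and the latter was past 2-fold. The first is printed in 10 spots and read 36.5 and 21.4 without TNF and 18.5 and 12.1 with TNF. Cdk14, a cyclin-dependent kinase, had 2 bright probes that were lower in KO neutrophils, by -0.77 and -0.70, and level in macrophages without TNF, at 0.02 and -0.01. The other Cdk14 probe read 5.77 and 4.45 in macrophages and was dim elsewhere.

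No probe in the lists of cell division and housekeeping genes was past 2-fold. Of the list of cell cycle genes and kinases, the counts were 0 of 11, 0 of 10 and 0 of 9 probes. The shares of named gene probes elsewhere were 5.45%, 8.97% and 7.98%, and lists this small cannot be told from them. Beyond Dbf4, Dmtf1, a cyclin D-binding factor, differed by 0.11, 0.20 and 0.00, and Cdk5 by -0.14, 0.11 and 0.34. Rheb, the GTPase that activates mTORC1, read 726 and 785, 719 and 757, and 288 and 267 on 1 bright probe, and its other bright probe differed by 0.07, 0.00 and -0.03. For the list of mitochondrial and proteasome genes the count was 0 of 12 in each condition, beside the same shares elsewhere. Psmc2, an ATPase of the proteasome, read 4384 and 4344 in macrophages, 5883 and 4800.1 with TNF, and 2349 and 1875 in neutrophils. Fastk, which acts on mitochondrial RNA, had 2 probes that went opposite ways in each condition, such as -0.30 and 0.19 without TNF.

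Among chromatin genes 1 was past 2-fold, Smarcd3, a subunit of the BAF remodelling complex. It read 25.6 in WT and 12.4 in KO macrophages and 18.5 and 9.45 with TNF, which is 2.07-fold and 1.96-fold lower, and it was dim in neutrophils. Kmt2c, a histone methyltransferase, read 336 and 320.0, 230.4 and 242, and 424 and 583. Over the 5, 5 and 4 probes of the list that could be read, medians were 0.04, 0.07 and 0.20, and 1, 0 and 0 were past 2-fold. Elsewhere 5.45%, 8.97% and 7.98% of named gene probes were past 2-fold, and so few probes cannot be told from that. Chpf2, a chondroitin polymerase whose probes neighbour that of Smarcd3, was lower in KO macrophages with TNF on all 3 of its probes. The differences were -1.03, -0.57 and -0.45, and in neutrophils they lay between -0.04 and 0.02.

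Secreted and immune genes included Fgl2 and Hgf, both past 2-fold in neutrophils but in opposite directions. Fgl2, a fibrinogen-like protein of macrophages and T cells, lies 12.9 Mb away. It read 122 in WT and 244 in KO macrophages, 38.7 and 51.3 with TNF, and 455 and 1137 in neutrophils. KO was the higher array throughout, 2.01-fold, 1.33-fold and 2.5-fold. The difference without TNF sat on the edge of the size rule, and quantile normalization put it at 0.96. Hgf, hepatocyte growth factor, read 54.7 and 41.6 in macrophages, 10.2 and 18.2 with TNF, and 35.6 and 10.8 in neutrophils. It was 3.29-fold lower in KO neutrophils but 1.79-fold higher in KO macrophages with TNF. Within each genotype the array with TNF was the dimmer, by 2.43 in WT and 1.19 in KO on the log2 scale. Ptpn12, a tyrosine phosphatase, read 115 in WT and 223 in KO neutrophils and differed by 0.20 and -0.09 in macrophages. Of 4 probes, 1 was past 2-fold higher without TNF, 0 with TNF, and in neutrophils 1 was higher and 1 lower. Elsewhere 5.45%, 8.97% and 7.98% of named gene probes were past 2-fold, and 4 probes cannot be told from that.

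Class 3 semaphorins, secreted guidance proteins, were lower in KO without TNF on each probe that could be read on both arrays, and with TNF Sema3a and Sema3c went opposite ways. Sema3a had 2 probes 5.49 and 5.62 Mb away. The first read 9.59 in WT and 4.39 in KO macrophages and the second 74.8 and 36.3, both past 2-fold, with log2 differences of -1.13 and -1.04. With TNF they read 5.19 and 4.77, and 28.6 and 16.1, short of 2-fold. Sema3c, 9.25 Mb away, also had 2 probes. The brighter read 44.7 and 36.7 without TNF but 82.3 in WT and 171 in KO with TNF, 2.08-fold higher, and the dimmer read 6.81 and 13.6 with TNF. Neither gene was measured in neutrophils, and Sema3d and Sema3e were dim on all arrays. Of the mesothelial and fibroblast markers, Col1a1 and Col1a2 were lower on the same KO macrophage arrays, by -1.09 and -1.06 without TNF and -1.48 and -1.35 with it. The sum of the list, made up mostly of these genes, went from 19214 to 9333 without TNF and from 18406 to 7063 with TNF. Upk3b was lower by -1.24 without TNF and dim in KO with it. Msln was nearly level, at 0.01 and -0.14. The part of these markers in the semaphorin values was not tested.

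Neuronal and channel genes were mostly dim. Of 17 probes of that list, 9, 8 and 7 could be read, and 0, 2 and 1 were past 2-fold. The shares of named gene probes elsewhere were 5.45%, 8.97% and 7.98%, and so few probes cannot be told from them. Cacna2d1, a calcium channel subunit 7.9 Mb away, read 52.1 and 34.6 in macrophages and 35.8 and 20.2 with TNF on its brighter probe, and the other was at least 3.09-fold lower in KO with TNF. Gnai1, an inhibitory G protein subunit, read 19.2 and 15.6, and 23.4 and 11.9 with TNF. Gnat3, a taste-cell G protein beside it, read 13.7 and 11.1, and 9.46 and 6.00. Kcnh2, a potassium channel subunit 15.8 Mb away that is not in that list, read 7.06 in WT and 3.35 in KO macrophages without TNF, 2.1-fold lower, and was dim elsewhere. Among scaffold proteins, 0, 0 and 1 of 9 probes were past 2-fold, beside the same shares elsewhere. Phtf2 had a dim probe at 11.9 and 19.1 in neutrophils and 6.00 in WT macrophages with TNF, where the KO array was not well above background. Its bright probe was nearly level, at -0.01, -0.21 and 0.17.

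Of the distance ranges with both sides pooled, 5 to 10 Mb had the largest share past 2-fold in each condition, and all its probes lie on the higher side. There 3 of 23 probes were past 2-fold without TNF, 6 of 21 with TNF and 3 of 20 in neutrophils. On the higher side alone, 2.5 to 5 Mb had 2 of 9, 2 of 9 and 4 of 15. The whole 10 Mb window on the higher side had a median size of 0.30, 0.40 and 0.30, with 9.8%, 21.3% and 16.1% past 2-fold. Over named gene probes elsewhere the shares were 5.45%, 8.97% and 7.98%. Of the windows of the same length further along chromosome 5, 80 to 90 Mb from Steap4 had the largest shares in macrophages. It had 12.1% without TNF, 24.7% with TNF and 8.57% in neutrophils. The other windows beyond 10 Mb had 0% to 5.8%, 0% to 16.3% and 1.64% to 16% in that order. The near window holds a run of Speer genes, a family of near copies first described in testis. Speer8-ps1 read 4.97 and 6.75 in macrophages, 3.54 and 8.05 with TNF, and 21.1 and 27.8 in neutrophils. Speer4d read 2.89 and 5.69 in macrophages without TNF. The dimmer Speer1 probe and a Speer3 probe were at least 3.69-fold and 2.71-fold lower in KO neutrophils, from 21.7 and 12.7 in WT. The brighter Speer1 probe read 86.9 and 45.5 in neutrophils, 1.91-fold lower and short of 2-fold. The dimmer Speer1 probe shares bases with a probe of 4933402N22Rik, given below. Of 14 Speer probes, 6 shared a 20-base run with a probe of another name.

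**Figure D3:**
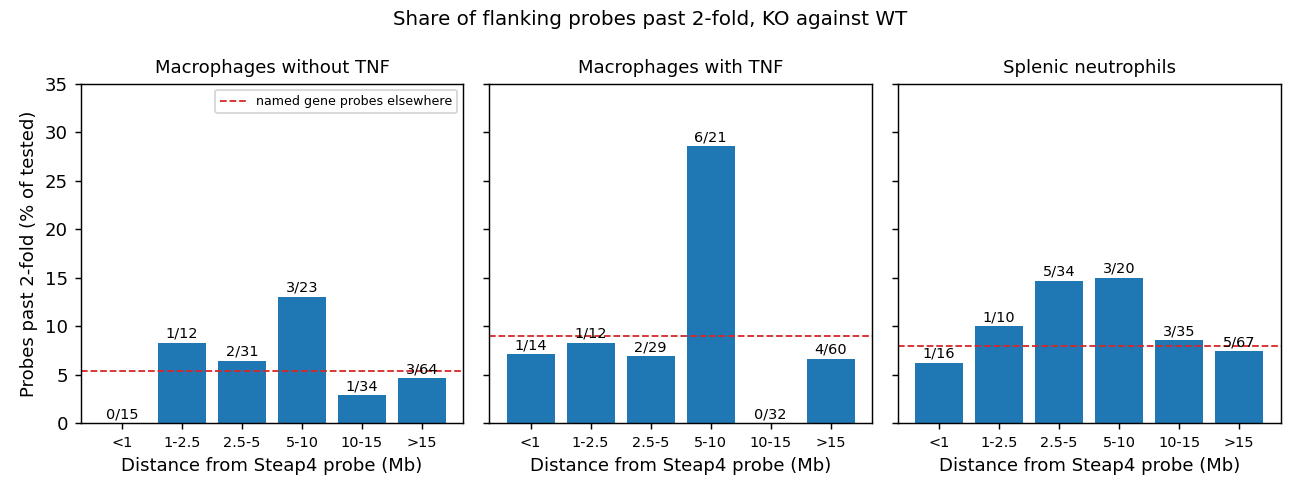
Bars give the percent of readable flanking probes past 2-fold, KO against WT, by distance from the Steap4 probe on both sides (Mb), with the number past and the number read above each bar; the dashed line is the share of named gene probes elsewhere, 5.45%, 8.97% and 7.98%. The tallest bar is 6 of 21 probes at 5 to 10 Mb with TNF, and the bar within 1 Mb is at 0 of 15, 1 of 14 and 1 of 16.

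**Figure D4:**
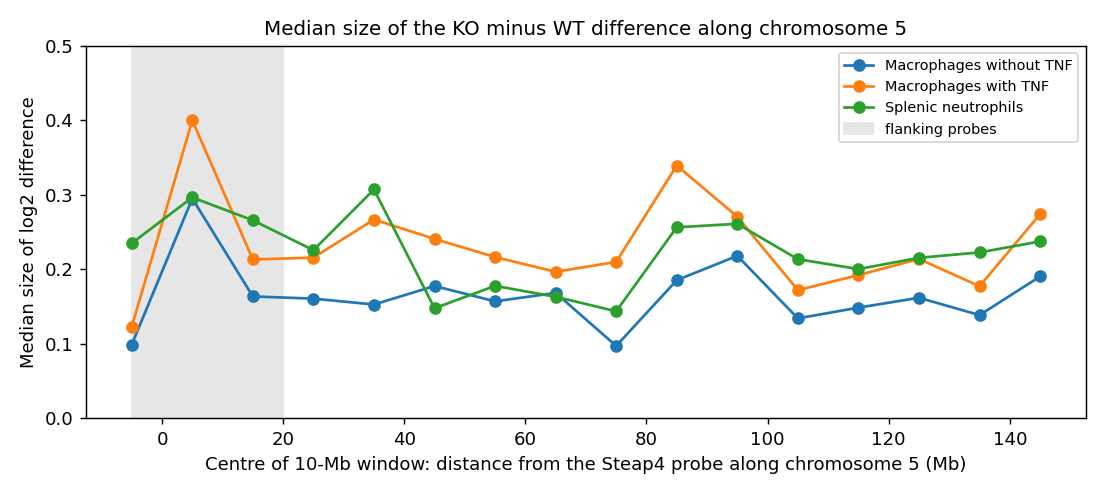
Lines give the median size of the log2 difference, KO against WT, over probes measured on both arrays in windows of 10 Mb along chromosome 5 (x axis, window centre as distance from the Steap4 probe), 1 line per condition. The shaded stretch holds the flanking probes; its middle window reaches 0.30, 0.40 and 0.30, its first and last windows lie between 0.10 and 0.27, and the window at 80 to 90 Mb reaches 0.34 with TNF.

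Most of the probes higher in KO macrophages were brighter on the neutrophil arrays. For each macrophage comparison, probes were split by their signal on the WT neutrophil array. Those called neutrophil-bright were at least 2-fold above a WT macrophage array that the comparison did not use. The WT neutrophil array also carried B cell and erythroid markers, with sums of 53408 and 34929, beside a neutrophil sum of 207741. The B cell sum was 473 in WT macrophages without TNF and 315 with TNF. Neutrophil-bright probes may therefore be bright in other spleen cells, which the split does not separate. Without TNF, 5 of 41 neutrophil-bright flanking probes were higher in KO and 0 of 138 others. Elsewhere in the genome the shares were 11.6% and 1.27%, beside 12.2% and 0% here. With TNF, 7 of 34 were higher and 3 of 134 others, 20.6% and 2.24%, beside 20.9% and 2.17% elsewhere. In the 10 Mb window on the higher side, 3 of 20 and 6 of 18 neutrophil-bright probes were higher, against 0 of 31 and 2 of 29 others. Those window shares were 15% and 33.3% against 0% and 6.9%, and their difference from the shares elsewhere was not tested. The neutrophil and B cell markers were higher on the same KO arrays, as given above, and their part in these values was not tested.

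Individual probes of this kind included A_55_P2081432, 4.37 Mb away, which shares bases with 2 probes elsewhere. It read 27.0 and 72.9 in macrophages, 19.6 and 51.2 with TNF, and 532 and 459 in neutrophils. TC1779162, 2.52 Mb away, read 4.38 and 10.2, 4.33 and 12.3, and 40.3 and 54.3. Gm10471 had 1 probe at 4.89 and 20.7, 9.81 and 21.7, and 28.6 and 33.5, and A_55_P2081432, TC1779162 and this probe were past 2-fold in both macrophage comparisons and differed 1.35-fold or less in neutrophils. The second Gm10471 probe read 13.8 and 21.8, 14.7 and 21.2, and 29.9 and 41.5, with log2 differences of 0.65, 0.53 and 0.47, all short of 2-fold. Leaving out every probe that differed at least 2-fold between cell types left 2 of 90 flanking probes past 2-fold without TNF and 1 of 90 with TNF. The shares were 2.22% and 1.11%, beside 2.12% and 3.38% elsewhere.

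By the main size rule neutrophils had the most differences, 18 of 182 probes, or 9.89% beside 7.98% elsewhere. With no filter on dim probes, or only probes measured on all 6 arrays, macrophages with TNF had as many. The largest difference measured on both arrays, at Xrcc2, rested on 1 of its probes. The second Xrcc2 probe read 83.1 in WT and 6.16 in KO neutrophils, 13.5-fold lower, whereas the first read 18.2 and 11.6, 1.57-fold lower. On the macrophage arrays the second probe read between 6.21 and 11.5 and the first between 13.5 and 21.1. Both probes were lower in KO there as well, all short of 2-fold. Their log2 differences lay between -0.89 and -0.27 without TNF and between -0.65 and -0.07 with TNF. All 3 probes of 4933402N22Rik were lower in KO neutrophils, at 29.9 and 14.8, 36.9 and 8.80, and 48.5 and 9.83, or -1.01, -2.07 and -2.30 on the log2 scale. Of these, 2 share bases with neighbouring transcripts and 1 does not. Wdr86, a WD-repeat protein, read 18.5 and 8.05. ENSMUST00000101490, 16 Mb away, read 40.5 in WT and was dim in KO, at least 8.64-fold lower. On the other side Gm5067 read 65.7 in WT and 166 in KO, and AK142557 read 6.96 and 16.3. Erythroid markers were higher and macrophage markers lower on the KO array of this pair, and 2 of 6 neutrophil markers were higher. The part of these markers in the values was not tested.

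Probes of the same gene showed how far probes of 1 gene differed. In macrophages without TNF 30 genes had more than 1 measured probe, with a median gap of 0.15 between the highest and lowest difference and 1 gap of at least 1. With TNF the median gap over 26 genes was 0.17, and the largest was 0.71. In neutrophils it was 0.21 over 27 genes, and 3 gaps were at least 1, the largest at Xrcc2.

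Across conditions, 62 of the 136 probes measured on all 6 arrays had the same sign in each, beside 43.1% elsewhere (45.6% here), 35 lower and 27 higher in KO. With at least 1.25-fold in each as well, 8 remained, 5.88% beside 6.46%. Cyp51, Dbf4 and Fgl2 were among these 8. In a limma fit of genotype and condition over the 6 arrays, with 2 residual degrees of freedom, 0 of the 136 probes had an adjusted p (Benjamini-Hochberg over 22025 probes) under 0.05, and 0 of 21887 elsewhere. At an unadjusted p under 0.05 there were 21 of 136 (15.4%), 10 higher and 11 lower, beside 16.6% elsewhere. The smallest adjusted p of a flanking probe was 0.146 in this limma fit, at Cyp51, with a log2 difference of -0.82 ± 0.13 (SE) and KO lower in 3 of 3 conditions. Dbf4 was at -0.49 ± 0.10 (limma adjusted p 0.178) and Fgl2 at 0.91 ± 0.20 (limma adjusted p 0.191). The fit takes the variation of the KO minus WT difference from condition to condition as its error. Macrophages with and without TNF may come from the same mice, which it does not model. The Pearson correlation across these 136 probes was 0.70 between the macrophage comparisons, 0.34 between macrophages without TNF and neutrophils, and 0.14 between macrophages with TNF and neutrophils. Elsewhere the values were 0.77, 0.16 and 0.16. Probes of 1 array share its RNA and its scaling and are not independent, so these are descriptions.

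**Figure D5:**
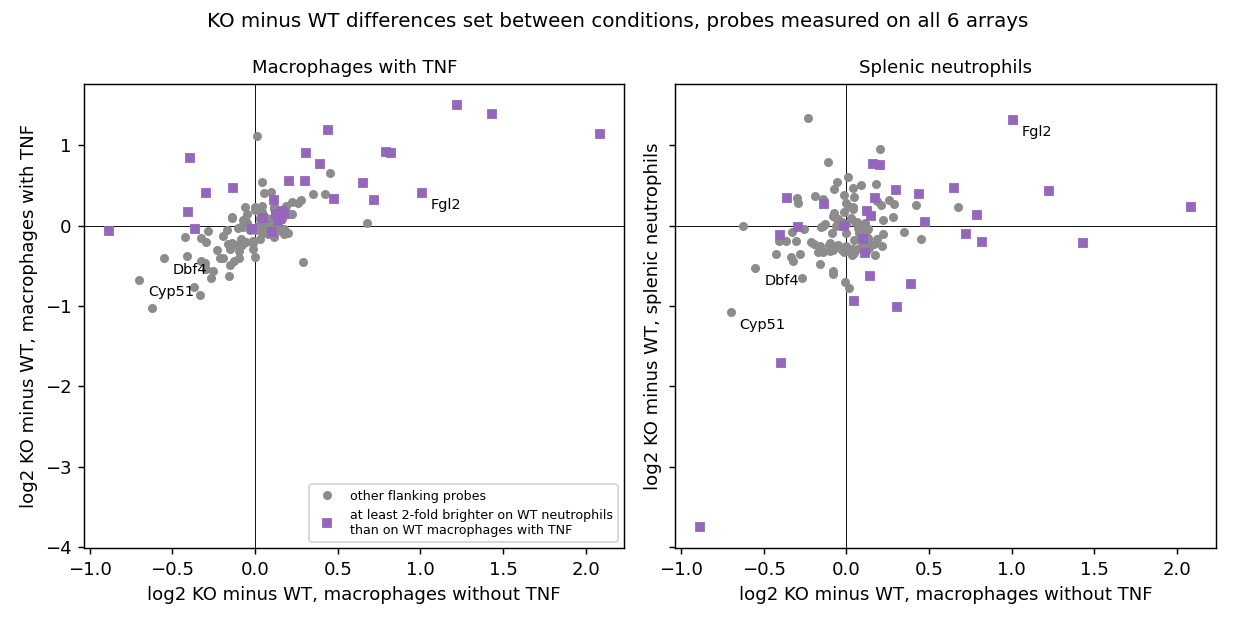
Each point is 1 of the 136 flanking probes measured on all 6 arrays, with its log2 difference, KO minus WT, in macrophages without TNF on the x axis and, on the y axis, in macrophages with TNF (left) or in neutrophils (right). Purple squares are at least 2-fold brighter in WT neutrophils than in WT macrophages given TNF; Cyp51 and Dbf4 lie in the lower left of both panels and Fgl2 in the upper right.

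The limit at 28 Mb fell between Speer4b and Dpp6. Of the Speer4b probes just inside it, all 3 were dim on the macrophage arrays and differed by 0.38, 0.71 and -0.04 in neutrophils. Just outside it, Dpp6, a potassium channel partner, differed by -0.16, 0.02 and -0.10, and Paxip1, a DNA damage adaptor, by 0.07, 0.04 and 0.54. The next gene outside, the serotonin receptor Htr5a, was dim on all arrays.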

How the data were processed

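Each array has 1 deposited file of linear spot intensity, quantified with Agilent Feature Extraction 10.7.3.1 per the file headers and the submitters' processing notes. Per the file headers, the authors' processed intensity is background-subtracted and detrended, and no normalization between arrays had been applied. Probe coordinates are those of the files, on mm9. Spots marked as outliers (101 on the WT macrophage array, for example) were left out, repeated spots were averaged, and log2 values were set against each array's 75th percentile over 55681 gene probes. The deposited intensity itself was not on a log2 scale.

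The background was 38835 named gene probes outside the stretch. The smallest fold quoted for agreement across conditions was 1.25, and alternatives used normexp (limma 3.58.1, offset 50), quantile normalization, the median of detected probes, removal of an intensity trend, other filters, 1 probe per gene, a 5 Mb stretch and 1.5-fold. Genotype over conditions was fitted with lmFit and eBayes (limma, R 4.3.3) on named gene probes measured on all 6 arrays, a fit added after seeing the data. Python 3.11.15 was used, and the calling steps and the fit were tested on simulated data. The number of arrays limits the precision.

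Named genes were, by rule, any probe past 2-fold the same way in all 3 conditions, the 5 largest differences each way in each condition, the 12 nearest probes, the 2 with the largest mean size in each of 10 gene lists, and 3 probes each side of the limit. Other genes of the lists and Sema3c, Cacna2d1, Gm10471's second probe, ENSMUST00000101490, Chpf2's other probes and the first Xrcc2 probe were named after their values were seen. The members and lists were chosen with earlier results of these data known. Some items of the stretch are not reported here.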

Additional observations from a re-analysis of the deposited data

Results flagged for a closer look

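The probe of E130116L18Rik, a transcript 16.7 Mb from Steap4, moved opposite ways in different cells. It read 25.7 in WT and 9.57 in KO macrophages with TNF, a log2 difference of -1.43. In neutrophils it was not well above background in WT and read 15.3 in KO, at least 3.18-fold higher, a bound of 1.67 on the log2 scale. Without TNF the macrophage arrays read 6.97 and 13.4, a difference of 0.94. It is given here because KO was past 2-fold lower in 1 condition and past 2-fold higher in another. The difference was not tested, since each group has 1 array.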

How the results depend on the processing

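The counts past 2-fold were 10 and 14 in macrophages (untreated and TNF) and 18 in neutrophils. In that order they became 2, 1 and 5 after normexp background correction, 26, 36 and 36 without a filter on dim probes, 4, 6 and 6 among probes well above background on all 6 arrays, 3, 4 and 7 within 5 Mb, and 27, 35 and 40 at 1.5-fold. Without probes that differ between cell types they were 2 and 1 in macrophages, and with 1 probe per gene 8 with TNF. The shorter stretch and 1 probe per gene hold fewer probes. Under the filter on all 6 arrays the shares fell to 2.94%, 4.41% and 4.41%, beside 3.34%, 6.35% and 5.48% elsewhere. After normexp they were 1.12%, 0.595% and 2.75%, beside 1.66%, 3.13% and 3.16%. With no filter they were 10%, 13.8% and 13.8%, beside 9.38%, 12.2% and 11.8%. At 1.5-fold they were 15.1%, 20.8% and 22%, beside 14.7%, 20.7% and 20.2%. The cause of these shifts was not tested. The median size was 0.16, 0.21 and 0.28. Without TNF it became 0.13 after normexp, 0.30 with no filter and 0.11 within 5 Mb. With TNF it became 0.41 with no filter and 0.15 both within 5 Mb and without probes that differ between cell types, and in neutrophils 0.18 after normexp. The median difference became 0.093 and 0.096 in macrophages with no filter. The count past the rule the same way in all 3 conditions went from 0 to 1 with no filter and 1 at 1.5-fold. Of 31 called values of named probes, 24 dropped under 2-fold after normexp, 5 after quantile normalization, 3 after removing the intensity trend and 1 after scaling to the detected median; none changed sign. Leaving out probes that share sequence, chosen after seeing the data, moved no count by over 1.5 times. Leaving out a replicate was not possible with 1 array per group. KO and WT were paired by condition in the limma fit, also added after seeing the data. Pairing by replicate number was not run, since each group has 1 array. Dim probes near background set the limit on small signals.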
